A study of Mus musculus with 16 samples.

Results

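Resting platelets were compared with vehicle in bone marrow-derived macrophages, using the 4 libraries labelled as treated with resting platelets and the 4 labelled as treated with vehicle, 8 of the 16 libraries of the series. The libraries were chosen by their titles, and all 15610 genes that passed a filter on low counts were compared. The macrophages were grown for 7 days from marrow of C57BL6/J mice, in L929-conditioned medium that supplied M-CSF, on which macrophages depend for growth. They were then held for 4 hours in 0.5% serum and treated for 4 hours with PBS (vehicle) or with unstimulated platelets from C57BL6/J blood. The series also holds 4 libraries treated with thrombin alone, which entered the fit and are otherwise used only for a few checks. It also holds 4 treated with thrombin-activated platelets, which are set beside the resting platelet values below. The protocol gives thrombin at 0.01 U/mL, while the labels of the thrombin group give 0.1 U/mL. The sources used here state neither the number of platelets added nor a test of their resting state. The labels do not say whether replicates came from separate mice or cultures, so p-values measure the spread between these libraries, part of which may be technical. All 4 groups share the starved macrophages and the short exposure.

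Platelets are anucleate fragments of megakaryocytes that carry stored growth factors, chemokines, serotonin, ADP and TGF-beta, along with RNA left from the megakaryocyte. Macrophages meet them at wounds and clots, and carry receptors for many of these products. Early response genes such as Fos and Nr4a1 are switched on within minutes to hours of receptor signalling, and they precede secreted products such as prostaglandins and growth factors. TGF-beta binds a receptor pair that includes Tgfbr1, which signals through Smad proteins and induces its own inhibitors, among them Smad7, Ski and Skil.

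Macrophage transcripts were abundant in both groups. Csf1r, the M-CSF receptor, stood at 2567 ± 226 CPM (counts scaled to library size; SD, n = 4) in vehicle and 2712 ± 256 CPM with resting platelets, and Adgre1, which encodes F4/80, at 1441 ± 129 and 1423 ± 105 CPM. Libraries held 22555094 to 27691609 counts in vehicle and 24857490 to 26355697 with resting platelets. Replicate 1 carried the Y-linked Ddx3y at 87.4 CPM in vehicle and 93.2 CPM with resting platelets, while replicates 2 to 4 carried Xist at 1160 to 1290 CPM, so replicate 1 differed in sex from the other three. Xist was also at 1.06 CPM in resting platelet library 1 against 0.0716 CPM in vehicle library 1. It stood at 0.481 CPM in thrombin library 1 and 0.13 CPM in activated platelet library 1. The source of these low values was not tested. Transcripts of stromal cells were abundant in both groups: Col1a1, a fibroblast collagen, stood at 1742 ± 568 CPM in vehicle and 1740 ± 577 CPM with resting platelets, and Acta2, smooth muscle actin, at 1061 ± 318 and 1178 ± 369 CPM. The 16 stromal and endothelial markers took 0.863%, 0.418%, 0.491% and 0.751% of counts in vehicle libraries 1 to 4 and 0.837%, 0.425%, 0.507% and 0.865% with resting platelets. Replicates 1 and 4 held more stromal RNA than 2 and 3 in both groups, and which cells of the culture gave any transcript cannot be told apart. A change in RNA per cell and a change in the number of cells of a type cannot be told apart in these bulk libraries.

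With resting platelets 529 genes changed, 3.39% of those tested, and most changes were small (edgeR's quasi-likelihood test, Benjamini-Hochberg adjusted over all genes, threshold 0.05; the adjusted p values below come from this test). There were 323 higher genes (2.07%) and 206 lower genes (1.32%). Outside the lists of platelet and red cell transcripts 306 rose and 205 fell, and 180 and 135 of these moved by less than 1.25-fold. A total of 22 of the 306 rises and 3 of the 205 falls reached 2-fold, and the median fold was 1.2 for rises and 1.21 for falls. In 298 of the 306 and 192 of the 205 the 4 libraries of one group lay wholly above the other, as they did in 11.5% of all tested genes (6.28% higher and 5.21% lower). The largest and the abundant changes named below were picked from calls without overlap, so for them non-overlap is a product of that choice. Treating equal replicate numbers as pairs gave 3360 calls (21.5% of tested genes), 1705 higher (10.9%) and 1655 lower (10.6%), and 529 of the 529 were among them. Paired counts of list members below stand against these shares, and counts without pairing against 2.07% higher and 1.32% lower. Rises made up 61.1% of calls, 50.7% with pairing, 71.7% after a correction for the GC content of transcripts and 72.3% when vehicle and resting platelets were fitted without the other groups. The GC correction left 297 calls, 213 higher and 84 lower, and kept 73 of the 95 called genes named below. Over 14817 genes the log2 fold change ran against GC content (Spearman rho -0.348, or -0.438, -0.353, -0.0344 and -0.194 in pairs 1 to 4). The count without pairing fell to 235, 221 or 275 without vehicle 1, 2 or 4, and to 208, 230 or 273 without resting platelets 1, 2 or 4. Leaving out replicate 1 from every group left 22 of the 95 called named genes called, with Ptgs2, Kcna3, Tgfbr1, Vegfa, Fos, Map2k6 and Gbp9 among them, or 92 with pairing. Ptger2, Skil, Sgk1, Bhlhe40 and Lif were among those that missed the threshold there without pairing (adjusted p = 0.0835 to 0.176). With all libraries, pairing kept 95 of the 95. Below, a call that ended without a single library did so in the fit without pairing, the only fit with such omissions. The plot of fold change against level shows these calls as a narrow band around 0 with a few large rises at low levels.

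**Figure D1:**
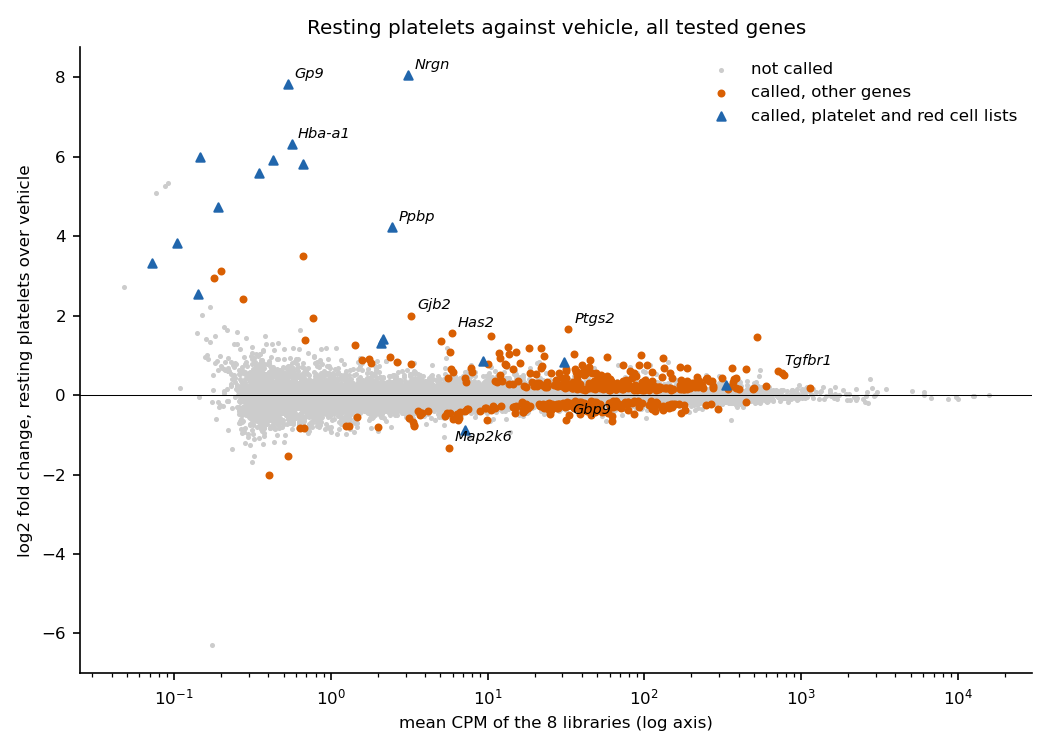
Log2 fold change of resting platelets over vehicle (vertical axis) against the mean CPM of the 8 libraries (horizontal log axis) for the 15610 tested genes, with called genes in orange, called members of the platelet and red cell lists as blue triangles and other genes in grey. The blue triangles hold the largest rises at low CPM, while Ptgs2, Gjb2 and Has2 are labelled among the other rises and Map2k6 among the falls.

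Among the named genes the largest folds belonged to transcripts that platelets and red cells carry, most of them at low levels. Nrgn, a member of the platelet list that encodes neurogranin, was at 7.73, 4.21, 11.3 and 1.7 CPM in resting platelet libraries 1 to 4, against 0 in vehicle 1 to 3 and 0.0714 in vehicle 4. Over the groups this was 642 counts against 2, a ratio of 332 (exact binomial 95% interval 91.6 to 2750, counting error only; adjusted p = 0.00015). Ppbp, the precursor of a platelet alpha granule chemokine, was at 5.95, 3.09, 8.59 and 1.11 CPM against 0.322, 0.182, 0.0732 and 0.392, 18.7-fold higher (adjusted p = 0.00123). In both genes library 3 held the most and library 4 the least, with no overlap with vehicle. Limma-voom put Ppbp at an adjusted p of 0.0512, and pairing without replicate 1 at 0.0521.

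Gp9, a subunit of the receptor for von Willebrand factor, had 109 counts with resting platelets and 0 in vehicle, at least 37.2-fold higher against 3 counts over the group. Alox12, the platelet lipoxygenase, had 136 counts against 2 (ratio 70.4, interval 19.1 to 587), and Cd226, an adhesion receptor, 87 against 1 (ratio 90.0, interval 15.7 to 3600). Mpig6b, an inhibitory platelet receptor, had 38 counts against 1 (ratio 39.3, interval 6.64 to 1590). Of 51 tested members of the platelet list 15 rose and 1 fell, the ADP receptor P2ry1 (10.9% of tested genes rose with pairing, as did 25 of the 51). The filter on low counts used all 4 groups, so a member scarce in vehicle could be tested only through platelet libraries where it is high. These counts of rises are in part made by that filter. Cd226 and Mpig6b were not tested in the fit of vehicle and resting platelets alone. Of the 6 tested red cell members 2 rose: the alpha globin Hba-a1 had 115 counts against 1 and Hba-a2 70 against 1. These 2 genes are near-identical copies, so their counts are uncertain as single genes. The beta globins Hbb-bs and Hbb-bt had 19 and 8 counts against 0 and were too low to be tested.

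The platelet list as a whole took 0.741%, 0.512%, 0.55% and 0.677% of counts in vehicle 1 to 4 and 0.819%, 0.578%, 0.634% and 0.843% with resting platelets (two-sided exact permutation p = 0.286, or 0.6 when adjusted over 7 lists). Thbs1, which encodes thrombospondin 1, was its most abundant member by counts, at 3138, 1639, 1868 and 2766 CPM in vehicle and 3726, 2054, 2557 and 4178 with resting platelets. Its higher values lay in replicates 1 and 4, as with the stromal markers, and it did not pass (adjusted p = 0.451; 0.0106 with pairing). Pf4, the platelet factor 4 chemokine that macrophages also express, was at 199 ± 19.3 CPM in vehicle and 207 ± 11.1 CPM with resting platelets (SD, n = 4; adjusted p = 0.701). Taking the 27 members under 1 CPM in every vehicle library, which the choice itself makes low there, the shares with resting platelets were 0.00237%, 0.00138%, 0.00317% and 0.000869% of counts. In vehicle they were 0.000318% to 0.000403%. Library 3 held the highest share and library 4 the lowest.

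Several genes that rose outside these lists had another order of libraries. Ptgs2 was lowest in resting platelet library 3, at 32.2 CPM, and highest in library 4, at 64.2 CPM, the reverse of Ppbp at 8.59 and 1.11 CPM. Gjb2 was likewise lowest in library 3, and Has2 was lowest in 3 and highest in 4. With 4 libraries no correlation was computed. The RNAs of the mitochondrial ribosome rose: mt-Rnr2 was at 447, 406, 587 and 337 CPM against 263, 261, 337 and 246 (1.6-fold higher, adjusted p = 0.0318), and mt-Rnr1 was 1.59-fold higher (adjusted p = 0.0478). In both RNAs library 3 was the highest and 4 the lowest in the vehicle group as well as with resting platelets. These RNAs were named after their values were seen, and their calls were not followed over the alternative fits. Which cells or platelets gave them was not tested.

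**Figure D2:**
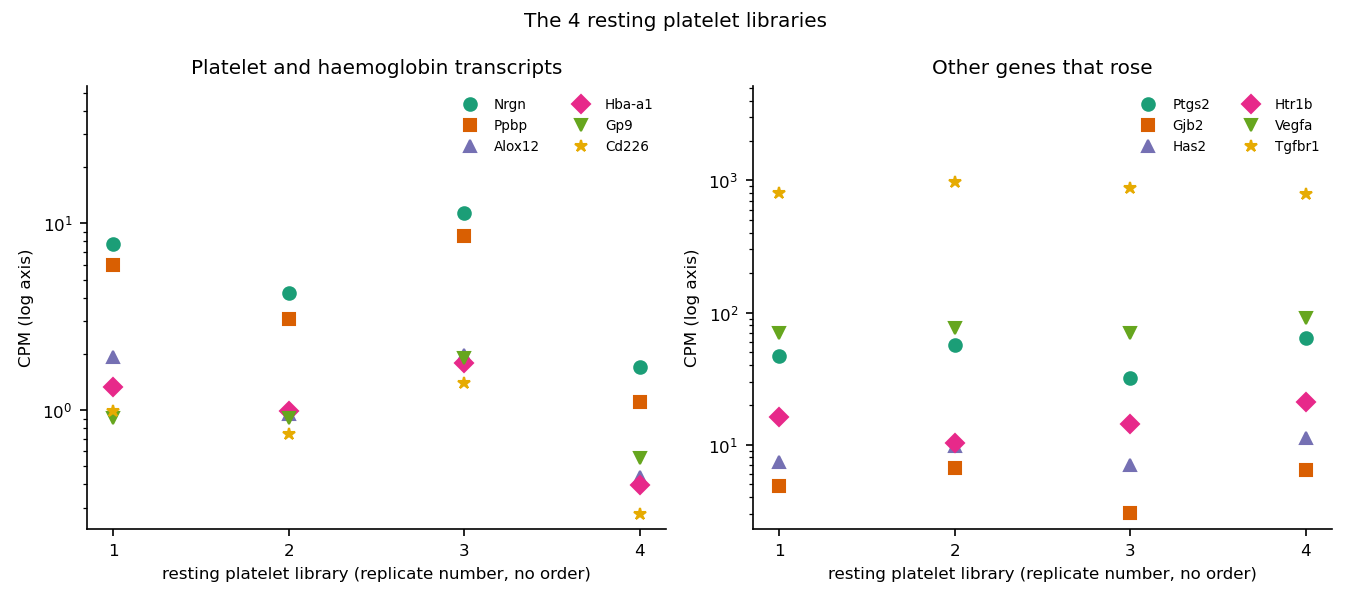
CPM on a log axis in the 4 resting platelet libraries, numbered by replicate with no order among them, for 6 platelet and haemoglobin transcripts (left) and 6 other genes that rose (right). Platelet transcripts are highest in library 3 and lowest in library 4, while Ptgs2 is lowest in library 3 at 32.2 CPM and highest in library 4 at 64.2 CPM.

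Of the marker lists of other cells only that of dendritic cells had shares that did not overlap between the groups. The neutrophil list took 0.0298% ± 0.00199 of counts in vehicle and 0.0298% ± 0.00601 with resting platelets (SD, n = 4; exact permutation p = 1.0), and edgeR, DESeq2 and limma-voom each called 0 of its 11 tested members, with 0 at an unadjusted p under 0.05. These counts were also 0 for each of the lymphocyte, dendritic cell, mast cell and stromal lists. Lymphocyte markers took 0.00363% and 0.00288% (exact permutation p = 0.343), lower in all 4 pairs, with 2 of 4 tested members lower with pairing. Dendritic cell markers took 0.0117% and 0.0108%, with each resting platelet library below each vehicle library (exact permutation p = 0.0286, the smallest this design allows; adjusted p = 0.2). Mast cell markers stood at 0.000167% and 0.000169% (exact permutation p = 0.914), with 6 of the 10 at 0 in both groups. The stromal list had means of 0.631% and 0.659% (exact permutation p = 0.714), with 6 of 14 tested members higher with pairing, among them Postn, a matrix protein, at 576 ± 194 and 665 ± 240 CPM (adjusted p = 0.00048 with pairing). Of those 14 members 10 had replicates 1 and 4 above 2 and 3 in both groups, against 11.7% of all tested genes. With the stromal share of each library added to the fit, an alternative chosen after seeing the data, edgeR called 1823 genes and 95 of 95 called genes named by the rule given under processing stayed called. As the mean share was close in vehicle and resting platelets, that fit cannot tell which cells made a change.

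In prostaglandin synthesis the inducible enzyme rose. Ptgs2, cyclooxygenase 2, which makes the prostaglandin precursor (chromosome 1, 149975782 to 149983985, GRCm39), was at 16.9, 14.6, 14.9 and 16.5 CPM in vehicle 1 to 4 and 46.7, 56.6, 32.2 and 64.2 CPM with resting platelets. The vehicle values lay close together and every resting platelet value stood far above them, at 3.17-fold on average (log2 1.67 ± 0.22 SE; adjusted p = 0.000868). Ptger2, a prostaglandin E2 receptor that raises cAMP (chromosome 14, 45225568 to 45241277), was at 20.3, 20.6, 21.2 and 20 CPM against 30.3, 35.9, 27.8 and 26.3, 1.46-fold higher (adjusted p = 0.00485), again without overlap. Ptges3, a cochaperone with prostaglandin E synthase activity, rose 1.14-fold (adjusted p = 0.023). Of the 17 tested genes for prostaglandin synthesis and receptors, these were the 3 calls. With pairing 3 rose and 3 fell, where 10.9% and 10.6% of all tested genes did. The median log2 fold change of the list was 0.02, against -0.0031 over all tested genes. The call of Ptges3 ended without vehicle 1 or 2 or resting platelets 1 or 2, in the fit of the 2 groups and with the GC correction (adjusted p = 0.0567 to 0.109).

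Promoter stretches are shown for 4 genes that rose, to set the letters at their start sites side by side. Each runs from 160 bases before to 25 bases after the RefSeq start (GRCm38.p6), 5′ to 3′ on the gene's strand. Capitals mark matches to the core of the cAMP response element (TGACG, or CGTCA on the other strand), the E-box (CACGTG) and the NF-kB site, searched on both strands. They lie at chr1:150099871-150100055 (plus strand) for Ptgs2, chr12:85473730-85473914 (plus) for Fos, chr15:101266686-101266870 (plus) for Nr4a1 and chr14:57104678-57104862 (minus) for Gjb2.
Ptgs2: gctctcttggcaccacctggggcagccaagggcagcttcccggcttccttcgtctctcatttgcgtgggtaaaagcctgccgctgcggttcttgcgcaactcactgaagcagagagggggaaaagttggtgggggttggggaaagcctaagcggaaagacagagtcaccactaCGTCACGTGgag
Fos: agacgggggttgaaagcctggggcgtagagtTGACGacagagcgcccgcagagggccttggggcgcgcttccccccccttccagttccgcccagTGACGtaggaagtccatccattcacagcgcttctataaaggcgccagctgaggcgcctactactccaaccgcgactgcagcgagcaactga
Nr4a1: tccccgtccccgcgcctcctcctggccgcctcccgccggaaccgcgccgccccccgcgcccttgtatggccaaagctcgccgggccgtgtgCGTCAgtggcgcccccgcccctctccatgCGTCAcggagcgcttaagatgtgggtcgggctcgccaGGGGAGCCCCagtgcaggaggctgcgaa
Gjb2: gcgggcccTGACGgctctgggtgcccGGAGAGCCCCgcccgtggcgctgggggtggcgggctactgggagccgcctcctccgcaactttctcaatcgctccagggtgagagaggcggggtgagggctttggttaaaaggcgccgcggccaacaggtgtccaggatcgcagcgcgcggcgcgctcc

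All 4 stretches hold this core: in Ptgs2 14 bases after the start, overlapping an E-box, in Fos 129 and 66 bases before it, in Nr4a1 69 and 40 before it, and in Gjb2 152 before it. The 4 were picked because they rose and have a match, so this count is a description of the choice. The full windows run from 250 bases before to 50 after the start, and a gene counted if any of its windows had the core. It was in 40.8% of 245 genes called higher (100 genes), 27.2% of 158 called lower (43 genes) and 34.3% of 11161 tested genes with a window. Counted per window and not per gene, 20.8% of all 32851 windows held it. Windows per gene were not compared between these sets. The core holds a CG pair, and the base composition of the windows was not measured. Transcripts of higher genes had a median GC content of 45.9% and those of lower genes 56.2%, against 50.5% over all tested genes. The full element, an unbroken palindrome of the core, was in 4.9% of higher, 3.8% of lower and 3.37% of tested genes. The AP-1 site (TGANTCA) was in 8.16%, 8.23% and 6.58%, and the E-box in 15.5%, 12.7% and 11.4%. A match is a string of letters, not a bound site. RefSeq windows were found for 70 of the 101 named genes.

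Gap junction and ion channel genes included the largest rise named outside the platelet and red cell lists. Gjb2, connexin 26, a subunit of channels that join neighbouring cells (chromosome 14, 57336059 to 57342159), was at 1.29, 0.773, 1.46 and 1.64 CPM in vehicle and 4.85, 6.68, 3.06 and 6.37 CPM with resting platelets. Replicate 2 went from the lowest vehicle value to the highest resting platelet value, and the groups did not overlap (3.99-fold higher, log2 2.00 ± 0.30 SE; adjusted p = 0.00162). Kcna3, the potassium channel Kv1.3 of leukocytes (chromosome 3, 106943478 to 106945445), was at 4.04, 3.41, 3.66 and 3.57 CPM against 7.01, 8.37, 6.81 and 9.02, 2.12-fold higher (adjusted p = 4.71e-05). AI504432, a long noncoding RNA that begins just downstream of Kcna3 on the same strand (106946820 to 106961638), rose by a similar factor. It was at 10.9, 11, 11.7 and 11.2 CPM against 25.4, 28.9, 22.2 and 26.2, 2.29-fold higher (adjusted p = 4.71e-05). Both neighbours had tight groups, and in both library 3 was the lowest with resting platelets. Of 18 tested members of this list, which does not hold the noncoding RNA, 3 were called, all higher (median log2 0.04). With pairing 5 rose and 2 fell, where 10.9% and 10.6% of all tested genes did. Without replicate 1 in every group Gjb2 missed the threshold (adjusted p = 0.0557).

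Hyaluronan, a large sugar polymer of the cell coat, is made by the Has enzymes. Has2 (chromosome 15, 56529023 to 56557942) was at 2.36, 3.0, 2.67 and 3.85 CPM in vehicle and 7.38, 9.73, 6.96 and 11.2 CPM with resting platelets. It was highest in replicate 4 in both groups and rose by a like factor in every pair, 2.97-fold on average (log2 1.57 ± 0.25 SE; adjusted p = 0.00329). Tgfbi, a matrix protein named for its induction by TGF-beta, stood at 213 ± 7.82 CPM and rose to 280 ± 36.1 CPM, 1.32-fold (adjusted p = 0.0218). Without replicate 1 in every group Has2 missed the threshold (adjusted p = 0.0927). Of 18 tested members of this list these 2 were called, and with pairing 6 rose and 1 fell. The call of Tgfbi ended without vehicle 1, 2 or 4 or resting platelets 2 or 4, and in the fit of the 2 groups (adjusted p = 0.0503 to 0.069).

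Serotonin, which platelets store in dense granules, is read by Htr receptors and can be joined to proteins by transglutaminases. Htr1b, a receptor that couples to Gi proteins (chromosome 9, 81510344 to 81515885), was at 6.16, 3.91, 4.9 and 6.99 CPM in vehicle and 16.3, 10.3, 14.4 and 20.9 CPM with resting platelets. Replicates 1 and 4 were the higher ones in both groups, the order of the stromal markers, and no library overlapped (2.8-fold higher; adjusted p = 0.00807). With the stromal share in the fit Htr1b was 2.72-fold higher (adjusted p = 0.000275). The mean share was close in vehicle and resting platelets (0.631% and 0.659%), so this fit cannot tell which cells raised Htr1b. Tgm2, transglutaminase 2, was at 54.0, 45.9, 78.5 and 72.3 CPM against 105, 135, 107 and 159, 2.02-fold higher (adjusted p = 0.0102). Without replicate 1 in every group neither Htr1b nor Tgm2 passed (adjusted p = 0.16 for Htr1b and 0.141 for Tgm2). Of 7 tested genes of serotonin receptors and handling 2 were called, both higher, 5 rose with pairing, and the median log2 fold change was 0.77.

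**Figure D3:**
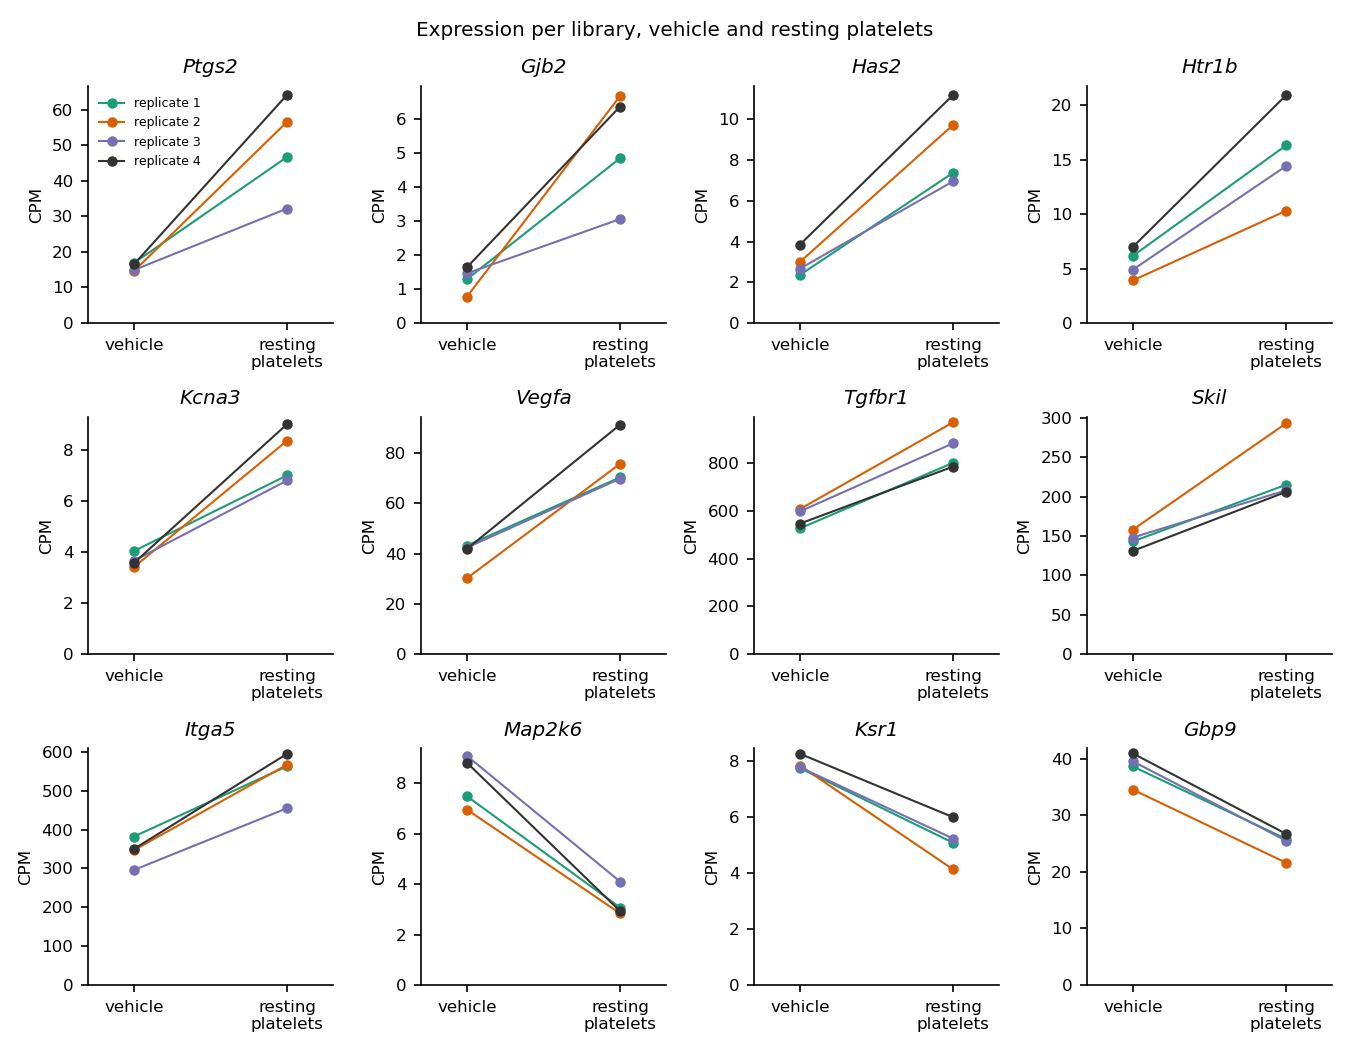
CPM of 12 genes in vehicle and resting platelet libraries, with a line joining libraries of equal replicate number and every vertical axis starting at 0. All 4 lines rise for the first 9 genes, with Ptgs2 from 14.6 to 16.9 CPM in vehicle up to 32.2 to 64.2 CPM, and all 4 fall for Map2k6, Ksr1 and Gbp9.

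In the TGF-beta pathway the calls without pairing were rises among receptors, inhibitors and targets and falls among ligands, while with pairing receptors and ligands moved both ways. Tgfbr1, the type I receptor (chromosome 4, 47353222 to 47414926), was at 527, 608, 598 and 547 CPM in vehicle and 802, 972, 884 and 786 CPM with resting platelets. Replicates 2 and 3 were the higher ones in both groups, the opposite of the stromal markers, and the difference was 1.51-fold (log2 0.60 ± 0.08 SE; adjusted p = 0.00123). Bmpr2, the type II receptor for bone morphogenetic proteins, rose 1.15-fold, from 110 ± 1.96 to 126 ± 3.92 CPM (adjusted p = 0.00791; 0.124 with the GC correction). Of 12 tested receptors these 2 were called, and with pairing 3 rose and 3 fell, where 10.9% and 10.6% of all tested genes did. Of the 12 tested ligands, where with pairing 3 rose and 4 fell, 2 were called, both lower: Gdf15, a stress-induced member, from 20.2 ± 0.322 to 16 ± 2.01 CPM (1.26-fold lower, adjusted p = 0.0296), and Bmp4, from 0.653 ± 0.257 to 0.157 ± 0.0447 CPM (4.03-fold lower, adjusted p = 0.033). The call of Gdf15 ended without vehicle 1, 2 or 3 or resting platelets 1, 2 or 4, in the fit of the 2 groups and with the GC correction (adjusted p = 0.0508 to 0.162), and that of Bmp4 without vehicle 1, 2 or 4 or resting platelets 1, 2 or 4 and by limma-voom (0.055 to 0.106).

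Of 22 tested signal mediators and targets 6 were called, all higher, and with pairing 12 rose and 1 fell. In 5 of the 22, Pmepa1 among them, replicates 1 and 4 lay above 2 and 3 in both groups. The median log2 fold change over the list was 0.14. Skil (SnoN), which binds Smads and blocks them, was at 143, 158, 148 and 131 CPM against 215, 293, 208 and 206, 1.59-fold higher (adjusted p = 0.00328), with replicate 2 above the rest. Its relative Ski rose 1.24-fold, from 180 ± 7.5 to 223 ± 10.6 CPM (adjusted p = 0.00137). Bhlhe40, a repressor that also acts on the clock, was at 27.5, 34.8, 23.1 and 27.4 CPM against 42.5, 50.8, 37.9 and 45.7 (1.57-fold higher, adjusted p = 0.0127). Smad7, which targets the receptor for degradation, rose 1.42-fold (adjusted p = 0.0303), and Pmepa1, a membrane inhibitor of the pathway, 2.05-fold (adjusted p = 0.0252). The call of Smad7 ended without vehicle 2, 3 or 4 or resting platelets 1, 2 or 4 and in the fit of the 2 groups (adjusted p = 0.0531 to 0.0913). That of Pmepa1 ended without vehicle 2 or 3 or resting platelets 1 or 4 and with no filter on low counts (0.0584 to 0.0941).

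Of 22 tested growth factor and repair genes 4 were called, all higher. With pairing 15 rose and 2 fell, where 10.9% and 10.6% of all tested genes did. In 6 of the 22, none of them among those 4, replicates 1 and 4 lay above 2 and 3 in both groups. The median log2 fold change over the list was 0.29. Vegfa, the growth factor for blood vessels (chromosome 17, 46327919 to 46343303), was at 43.2, 30.2, 42.4 and 41.9 CPM in vehicle and 70.4, 75.8, 69.9 and 91.4 CPM with resting platelets, 1.95-fold higher (adjusted p = 0.000949). Pdgfa, a mitogen for mesenchymal cells, was at 32.3, 28.9, 27.9 and 29.6 CPM against 43.9, 49.9, 41.0 and 44.1, 1.51-fold higher (adjusted p = 0.000415). Neither gene's groups overlapped. Hbegf, a ligand of the EGF receptor, rose from 13.2 ± 4.32 to 30.4 ± 8.51 CPM, or 2.28-fold (adjusted p = 0.0222), and Fgf2, basic fibroblast growth factor, 2.06-fold from 8.98 ± 2.48 to 18.6 ± 3.45 CPM (adjusted p = 0.0412). The call of Hbegf ended without vehicle 1 or 2 or resting platelets 4, with no filter and in the fit of the 2 groups (adjusted p = 0.0503 to 0.0812). The call of Fgf2 ended without vehicle 1, 2 or 3 or resting platelets 1, 2 or 4, by limma-voom, with no filter and with the GC correction (0.0625 to 0.127).

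Lif, Tmeff1 and Rgs16 were also higher. Lif, a cytokine of the interleukin 6 family, was at 8.45, 6.09, 7.98 and 9.88 CPM against 14, 17.8, 17.1 and 26.6, 2.32-fold higher (adjusted p = 0.0119; 0.0505 with no filter). Tmeff1, a transmembrane protein with follistatin domains, was at 16.7, 14.2, 14.5 and 15.6 CPM against 29.1, 35.6, 28.0 and 28.5 (1.98-fold higher, adjusted p = 1.36e-05). The resting platelet values of Tmeff1 lay together except for replicate 2, which stood above. Rgs16, which speeds the shut-off of G protein signals, rose 2.08-fold (adjusted p = 0.0352). Its call ended without vehicle 1, 2 or 3 or resting platelets 2 or 4, with no filter and in the fit of the 2 groups (adjusted p = 0.0542 to 0.109).

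Some early response genes were higher 4 hours after the platelets were added. Fos, a subunit of the AP-1 dimer (chromosome 12, 85520664 to 85524048), was at 49.8, 56.0, 55.7 and 56.4 CPM in vehicle and 76.5, 112, 84.8 and 97.4 CPM with resting platelets, 1.7-fold higher (adjusted p = 0.000949). Nr4a1, the orphan nuclear receptor Nur77, was at 2.47, 2.55, 2.49 and 2.14 CPM against 3.94, 4.08, 3.44 and 5.03, 1.71-fold higher (adjusted p = 0.0271). Neither gene's groups overlapped. Sgk1, a kinase of the early response, was at 123, 148, 124 and 116 CPM against 185, 278, 194 and 180, 1.64-fold higher (adjusted p = 0.00928). Trib1, a pseudokinase that recruits a ubiquitin ligase, rose 1.48-fold, from 23.1 ± 2.13 to 34.1 ± 2.04 CPM (adjusted p = 0.000949).

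Of the 12 AP-1 genes 2 rose, Fos and Fosl2 (1.39-fold, adjusted p = 0.0299), and 1 fell, Batf3, a factor of dendritic cell development (1.75-fold lower, adjusted p = 0.0477). With pairing 5 of the 12 rose and 4 fell. Of 26 Egr, Nr4a and other immediate early genes 3 were called, all higher: Nr4a1, the antiproliferative gene Btg1 (1.34-fold, adjusted p = 0.0211) and Rgs1 (1.26-fold, adjusted p = 0.0412). Paired, 13 of the 26 rose and 1 fell, where 10.9% and 10.6% of all tested genes did, and the median log2 fold change was 0.23. Egr1, a zinc finger factor of this list, was at 11.7, 14, 15.0 and 15.2 CPM against 18.1, 17.4, 20.4 and 23.6 and passed only with pairing (adjusted p = 0.104 without and 0.00539 with it). Calls ended without vehicle 1 or 4 or resting platelets 2 for Btg1, and without vehicle 1, 2 or 4 or resting platelets 1, 2 or 4 for Nr4a1 (adjusted p = 0.0612 to 0.0748). In the fit of the 2 groups Btg1 stood at 0.0528. For Fosl2 they ended without vehicle 1, 2 or 3 or resting platelets 1 or 4 and with no filter (adjusted p = 0.0513 to 0.0933). Those of Batf3 and Rgs1 held, of the 8 omissions, only without resting platelets 3 (adjusted p = 0.0707 to 0.146 otherwise), and both ended with no filter (0.0579 and 0.0501) and with the GC correction (0.102 and 0.19).

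Some integrins and chemokine receptors, which set how a macrophage adheres and moves, rose. Itga5, the alpha subunit of the fibronectin receptor (chromosome 15, 103252713 to 103275218), was at 382, 347, 296 and 350 CPM in vehicle and 563, 567, 455 and 595 CPM with resting platelets. Replicate 3 was the lowest in both groups, and the difference was 1.58-fold (adjusted p = 0.00336). Itga6, a laminin receptor subunit that platelets also carry, was at 282, 301, 318 and 308 CPM against 365, 365, 364 and 360, 1.2-fold higher (adjusted p = 0.00299). Itgav, the alpha V subunit, rose 1.29-fold (adjusted p = 0.0138), a call that ended without vehicle 2 (adjusted p = 0.0508). Of 29 tested genes of cytoskeleton, integrins and adhesion 2 were called, both higher. With pairing 17 rose and 1 fell, where 10.9% and 10.6% of all tested genes did.

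Cx3cr1, the fractalkine receptor (chromosome 9, 119877749 to 119897362), was at 90.1, 64.8, 96.0 and 111 CPM in vehicle and 162, 146, 187 and 196 CPM with resting platelets. It was 1.91-fold higher (adjusted p = 0.0111). It missed the threshold when low counts were kept in (adjusted p = 0.0511) and without replicate 1 in every group (0.164). Ccr1, a receptor for inflammatory chemokines, was at 30.8, 30.9, 31.8 and 31.1 CPM against 44.1, 42.1, 39.4 and 46.9, 1.38-fold higher (adjusted p = 0.00476). The vehicle values of Ccr1 were nearly equal, and every resting platelet value lay above them. Cxcr3, a receptor for interferon-induced chemokines, was 1.59-fold lower (adjusted p = 0.0255). Of 24 receptors for chemokines and platelet products 3 rose, Cx3cr1 and Ccr1 among them, and 1 fell. With pairing 10 rose and 3 fell, where 10.9% and 10.6% of all tested genes did. The call of Cxcr3 ended without vehicle 2 or resting platelets 1, 2 or 4 and in the fit of the 2 groups (adjusted p = 0.0612 to 0.0825).

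Of 15 tested chemokines 2 rose and 1 fell, and with pairing 4 rose and 2 fell. Cxcl14, a chemokine of resting tissues, was at 49.8, 52.7, 45.4 and 47.7 CPM against 63.7, 67.1, 60.1 and 59.6, 1.28-fold higher (adjusted p = 0.00783). Cxcl16, a scavenger receptor and chemokine, rose 1.34-fold (adjusted p = 0.0142), and Ccl4, an inflammatory chemokine, was 1.55-fold lower, at 13, 13.2, 11.8 and 10.5 CPM against 6.82, 7.26, 9.4 and 7.84 (adjusted p = 0.0192). Il1rn, the antagonist of the interleukin 1 receptor, was at 29.4, 25.4, 26.3 and 26.5 CPM against 36.9, 36.0, 37.6 and 35.7, 1.36-fold higher (adjusted p = 0.00453). The groups of these genes did not overlap. The call of Cxcl16 ended without vehicle 4 or resting platelets 2 (adjusted p = 0.0515 to 0.053), and that of Ccl4 without vehicle 1 or 2 or resting platelets 1 or 2 (0.0614 to 0.0749).

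Tnf was at 15.3, 17.4, 12.8 and 11.7 CPM in vehicle and 13, 19.8, 14.2 and 12.7 CPM with resting platelets (log2 0.06 ± 0.23 SE; adjusted p = 0.928). Its groups overlapped throughout, and the sign turned without vehicle 4 or resting platelets 2. Il1b was at 0.966, 2.77, 3.7 and 2.35 CPM against 2.95, 4.49, 4.26 and 5.5, higher in each pair but overlapping between groups (adjusted p = 0.128; 0.00442 with pairing). Il10, an anti-inflammatory cytokine, was at 0.503 ± 0.0736 CPM in vehicle and 0.247 ± 0.0892 CPM with resting platelets (adjusted p = 0.111; 0.0433 with pairing). Hmox1, heme oxygenase 1, was at 203 ± 33.2 and 191 ± 21.7 CPM (adjusted p = 0.772), with the sign turned without vehicle 2. Among 25 cytokines and NF-kB targets 2 rose, Lif and the related Osm (1.34-fold, adjusted p = 0.0385), whose groups overlapped. With pairing 7 of the 25 rose and 1 fell. Of the 8 omissions the call of Osm held only without resting platelets 1 (adjusted p = 0.0568 to 0.117 otherwise), and it ended by limma-voom (0.0539) and in the fit of the 2 groups (0.0988).

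Genes of metabolism and protein folding gave few calls without pairing. Hk2, the hexokinase that starts glycolysis, was at 52.5, 53.1, 52.9 and 48.6 CPM against 63.7, 76.1, 72.1 and 62.5, 1.32-fold higher (adjusted p = 0.0127). Of 25 glycolysis and hypoxia genes 2 rose, Hk2 and the glucose transporter Slc2a1 (1.34-fold, adjusted p = 0.0412), and 1 fell, the kinase Pdk1 (1.16-fold lower, adjusted p = 0.0318). Hsph1, a large heat shock protein, rose 1.29-fold, from 42.8 ± 1.78 to 55.2 ± 5.2 CPM (adjusted p = 0.00728), and 2 of 22 heat shock and unfolded protein genes rose. With pairing 9 of these 22 rose and 1 fell, where 10.9% and 10.6% of all tested genes did. Of the 25 glycolysis and hypoxia genes 6 rose and 3 fell with pairing. Calls ended without any 1 of vehicle 1 to 4 or resting platelets 1, 2 or 4 for Slc2a1 (adjusted p = 0.0676 to 0.123), and without vehicle 1 to 4 or resting platelets 1 or 2 for Pdk1 (0.0603 to 0.0937). Both ended with no filter (0.0996 and 0.0575) and in the fit of the 2 groups (0.0718 and 0.112).

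Without pairing, uptake, lipid and clock genes gave 1 or 2 calls in each direction. Abca1, a cholesterol exporter that apoptotic cells induce, rose 1.42-fold, from 649 ± 88.4 to 919 ± 95.5 CPM (adjusted p = 0.0323), and Tlr2, a receptor for bacterial lipoproteins, 1.38-fold, from 109 ± 14.9 to 151 ± 8.43 CPM (adjusted p = 0.0282). Sesn1, a sestrin that restrains mTORC1, was 1.31-fold lower, at 133 ± 6.92 and 101 ± 14.7 CPM (adjusted p = 0.0323), and Dbp, a clock output factor, 1.41-fold lower, at 38.8 ± 2.49 and 27.5 ± 4.04 CPM (adjusted p = 0.0381). Pparg, the nuclear receptor of lipid handling, was 1.28-fold lower (adjusted p = 0.0491). Of 21 genes of apoptotic cell uptake 2 rose and 1 fell, of 24 genes of LXR and fatty acid handling 1 rose and 1 fell, and of 16 clock genes 2 rose and 1 fell. With pairing 8 rose and 4 fell, 4 rose and 7 fell, and 3 rose and 5 fell in these lists, in that order. The groups of Abca1, Tlr2, Sesn1, Dbp and Pparg did not overlap, but in the fit without pairing each call ended without most single libraries. Abca1 ended without vehicle 1, 2 or 4 or resting platelets 2, 3 or 4 (adjusted p = 0.0606 to 0.101), and Tlr2 without vehicle 1, 2 or 4 or any 1 resting platelet library (0.0519 to 0.0904). Sesn1 ended without vehicle 1, 2 or 3 or resting platelets 1, 2 or 4 (0.064 to 0.103), Dbp without any library but resting platelets 3 (0.0508 to 0.117) and Pparg without any 1 of the 8 (0.0605 to 0.144), and all 5 ended when low counts were kept in (0.0579 to 0.092). Dbp also missed the threshold with the GC correction (adjusted p = 0.0996). With pairing all 5 passed (adjusted p = 4.77e-07 to 0.015), though Tlr2 did not without replicate 1 or 4 (0.0905 and 0.088).

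Among named genes averaging 5 CPM or more in vehicle, Map2k6 fell the most. This kinase (MKK6), which activates p38 (chromosome 11, 110289928 to 110416348), was at 7.48, 6.95, 9.08 and 8.81 CPM in vehicle and 3.07, 2.84, 4.1 and 2.93 CPM with resting platelets. The highest resting platelet value lay well below the lowest vehicle value (2.5-fold lower, log2 -1.32 ± 0.13 SE; adjusted p = 5.46e-05). Of 23 tested genes of the MAP kinase cascade it was the 1 call, with 1 higher and 6 lower when paired. Ksr1, a scaffold of the ERK branch, was at 7.73, 7.82, 7.76 and 8.24 CPM against 5.07, 4.12, 5.22 and 5.98, 1.55-fold lower (adjusted p = 0.00212). Dusp7, a phosphatase of ERK, was at 57.8, 54.5, 57.6 and 51.9 CPM against 41.3, 41.2, 43.5 and 37.8, 1.35-fold lower (adjusted p = 0.000949).

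Other named genes that fell have varied roles. Tbc1d2b, a Rab GTPase regulator of endosomes, was at 101, 97.9, 100 and 97.5 CPM against 69.2, 70, 76.2 and 72.0, 1.38-fold lower with tight groups (adjusted p = 5.46e-05). Rgs14, a regulator of G protein signals, was at 30.9, 29.5, 28.1 and 28.1 CPM against 20.3, 19.7, 21.3 and 21.8, 1.4-fold lower (adjusted p = 0.00162). Slc45a4, a membrane transporter, dropped from 73.9 ± 3.42 to 51.0 ± 6.38 CPM, 1.45-fold (adjusted p = 0.00158). Arrb1, beta-arrestin 1, fell 1.2-fold from 268 ± 9.85 to 224 ± 10.0 CPM (adjusted p = 0.0106), and Ptpn6, the phosphatase SHP-1, 1.18-fold from 289 ± 7.02 to 245 ± 14.6 CPM (adjusted p = 0.0105; 0.058 in the fit of the 2 groups). Cbx8, a Polycomb protein, was 1.45-fold lower (adjusted p = 0.0114; 0.0544 in the fit of the 2 groups).

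The ADP receptor P2ry1 was at 8.66, 13.6, 7.1 and 7.85 CPM in vehicle and 4.66, 5.11, 6.23 and 4.0 CPM with resting platelets, 1.85-fold lower (adjusted p = 0.0275). It is on the platelet list, where it moved against the other 15 called members. Lpar5, a receptor for lysophosphatidic acid, fell 1.38-fold (adjusted p = 0.0442). The call of P2ry1 ended without vehicle 1 or 2 or resting platelets 1, 2 or 4, with no filter and in the fit of the 2 groups (adjusted p = 0.0501 to 0.0906), and that of Lpar5 held, of the 8 omissions, only without resting platelets 3 (0.0693 to 0.14 otherwise), and ended with no filter, in the fit of the 2 groups and with the GC correction (0.0683 to 0.123).

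Each list of interferon defence had 1 call, lower, where 1.32% of all tested genes were called lower. Gbp9, a guanylate-binding protein, was at 38.6, 34.5, 39.5 and 40.9 CPM against 25.8, 21.6, 25.5 and 26.7, 1.54-fold lower (adjusted p = 0.000323). It fell in every pair with no overlap, which the choice of the largest falls required. Of 14 guanylate-binding and immunity-related GTPase genes Gbp9 was the 1 call, with a median log2 fold change of -0.21 and 3 lower with pairing. Of 30 interferon-stimulated genes 1 fell, Oas2 (1.31-fold lower, adjusted p = 0.0483), with a median of -0.19 and 2 lower with pairing. Of 21 antigen presentation genes 1 fell, Nlrc5, the regulator of MHC class I genes (1.17-fold lower, adjusted p = 0.0422), and 7 fell with pairing, against 10.6% of all tested genes. The calls of Oas2 and Nlrc5 ended without any 1 of the 8 libraries (adjusted p = 0.0521 to 0.127), and both with no filter and with the GC correction (0.0575 to 0.112). Oas2 also missed the threshold under DESeq2-type scaling (0.0533) and with pairing and the GC correction together (0.0501).

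Other lists gave 0 calls by edgeR without pairing and by limma-voom. Of 23 tested genes of sterol synthesis and uptake 8 had an unadjusted p under 0.05 and DESeq2 called 4, and with pairing 11 rose and 2 fell (median log2 0.13). Of 36 cytosolic ribosomal proteins 12 had an unadjusted p under 0.05 and DESeq2 called 2, and with pairing 11 fell, or 1 with the GC correction as well. Of 29 lysosome and autophagy genes 3 had an unadjusted p under 0.05 and DESeq2 called 0, with 3 higher and 6 lower with pairing. Of 26 nuclear-encoded respiratory chain genes 3 had an unadjusted p under 0.05 and DESeq2 called 1, with 1 each way with pairing. Of 22 iron and haem genes 5 had an unadjusted p under 0.05 and DESeq2 called 3, and with pairing 2 rose and 7 fell. Of 17 antioxidant genes of the NRF2 pathway these counts were 3 and 1, with 5 higher and 4 lower with pairing, and of 20 zinc transport and metallothionein genes 5 and 0, with 3 higher and 2 lower. The macrophage identity list had 2 calls among 22, both higher: Cx3cr1 and the endotoxin co-receptor Cd14 (1.2-fold, adjusted p = 0.025). With pairing 6 of the 22 rose and 4 fell. Leaving out vehicle 1, 2 or 4 or resting platelets 2 or 4, or fitting the 2 groups alone, ended the Cd14 call (adjusted p = 0.053 to 0.0854). With pairing 21.5% of all tested genes were called, which is the share these paired counts stand against.

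**Figure D4:**
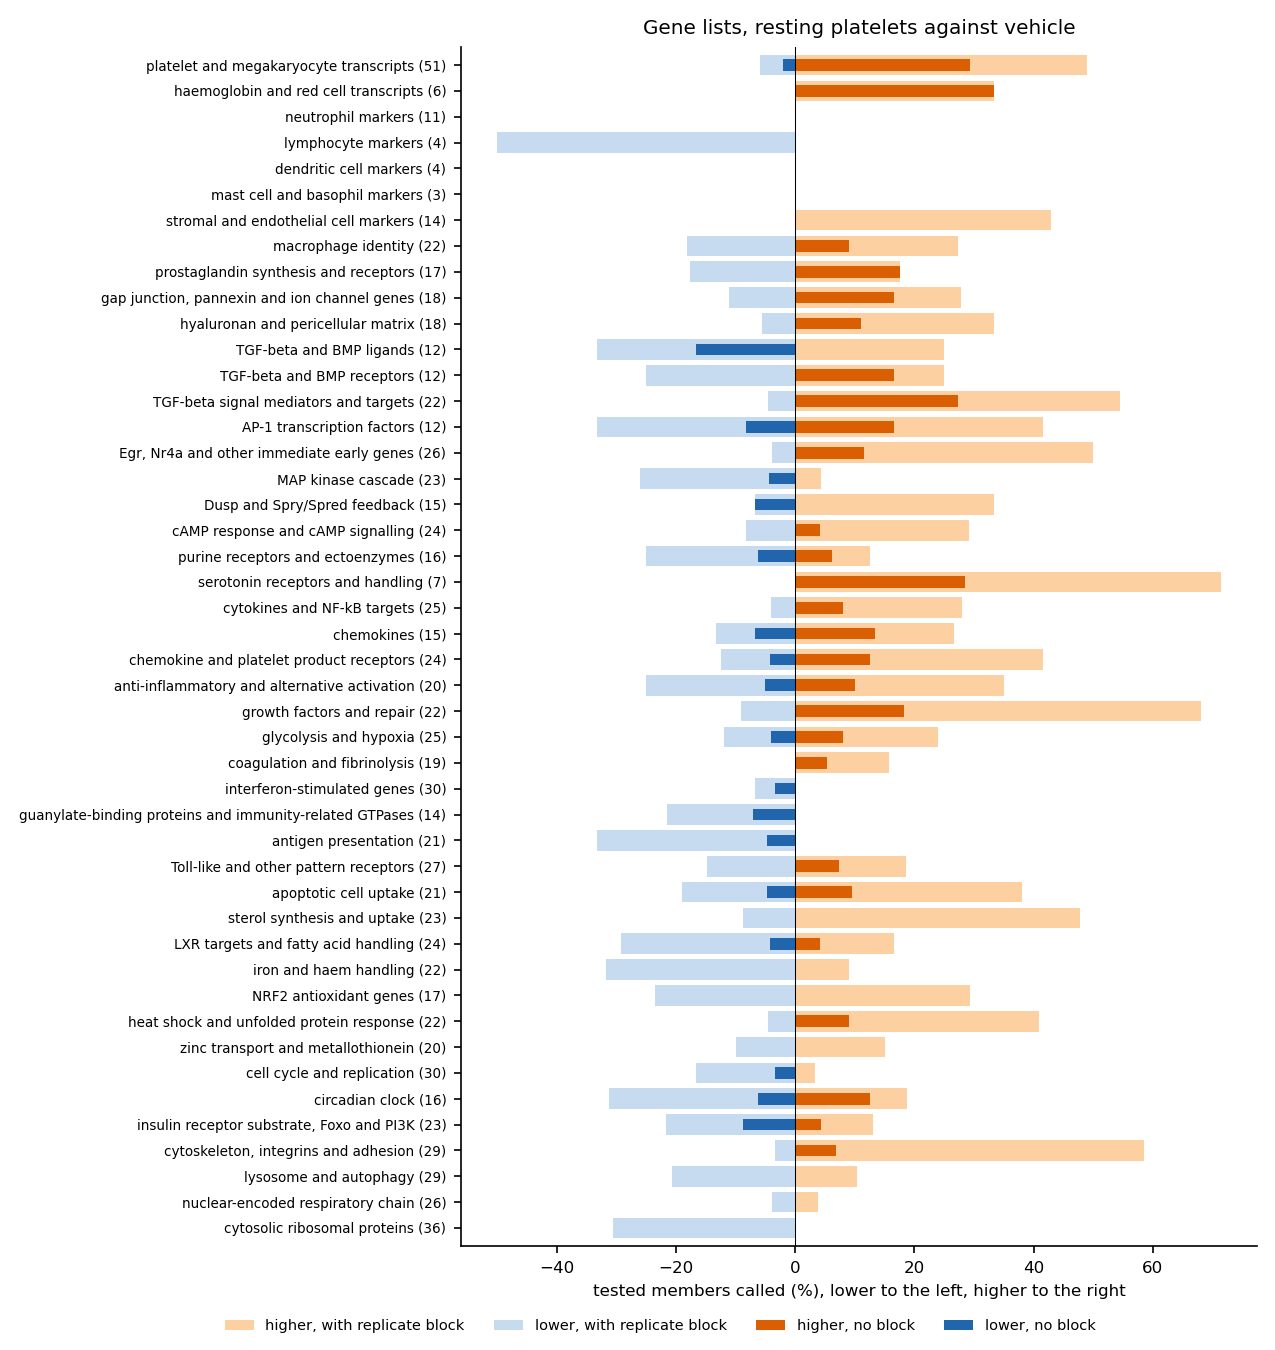
Percent of tested members called in each gene list (number tested in brackets), higher to the right in orange and lower to the left in blue, without pairing (dark, narrow) and with replicate numbers as pairs (light, wide). TGF-beta mediators, growth factors, serotonin genes and integrins extend to the right, and ribosomal proteins and antigen presentation to the left.

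Thrombin-activated platelets were set beside resting platelets for the same genes, with the difference tested in the same fit, where 15.8% of tested genes were called. The activated platelet group also involved thrombin, which the resting platelet group did not receive. Platelet activation and any action of thrombin on the macrophages therefore cannot be told apart in this contrast. Ptgs2 was at 180, 104, 116 and 193 CPM with activated platelets, above every resting platelet library (log2 1.57 ± 0.21 SE higher; adjusted p = 0.000101). Vegfa reached 301, 218, 289 and 332 CPM (log2 1.89 ± 0.13; adjusted p = 1.84e-07), Tgm2 625, 508, 591 and 808 CPM (log2 2.32 ± 0.20; adjusted p = 1.41e-06) and Has2 23.7, 15.9, 19.4 and 33.0 CPM (log2 1.38 ± 0.23; adjusted p = 0.000603). Nrgn, a carried transcript, was also higher, at 37.9, 60.6, 47.8 and 38.9 CPM (adjusted p = 6.2e-05), and its part in the other differences was not tested. Among genes lower with resting platelets, Map2k6 stood at 1.95, 2.11, 2.12 and 2.16 CPM (log2 -0.63 ± 0.14; adjusted p = 0.00573) and Gbp9 at 13.6, 16.1, 13.4 and 16.1 CPM (log2 -0.75 ± 0.08; adjusted p = 8.53e-06).

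For several other genes no difference between resting and activated platelets passed. Tgfbr1 was at 735, 952, 883 and 780 CPM with activated platelets, overlapping the resting platelet values (log2 -0.04 ± 0.08 SE; adjusted p = 0.808). Cx3cr1 was at 153, 172, 180 and 184 CPM (log2 -0.0048 ± 0.18; adjusted p = 0.99), Gjb2 at 5.09, 3.5, 2.41 and 5.01 CPM (log2 -0.38 ± 0.26; adjusted p = 0.364) and Bmpr2 at 124, 122, 122 and 129 CPM (log2 -0.02 ± 0.04; adjusted p = 0.73). Itga5 was at 639, 537, 529 and 652 CPM (log2 0.11 ± 0.11; adjusted p = 0.528; 0.0282 with pairing). Itga6 was lower with activated than with resting platelets, at 315, 320, 306 and 324 CPM (log2 -0.20 ± 0.04; adjusted p = 0.00396). A difference that did not pass is not shown to be absent.

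**Figure D5:**
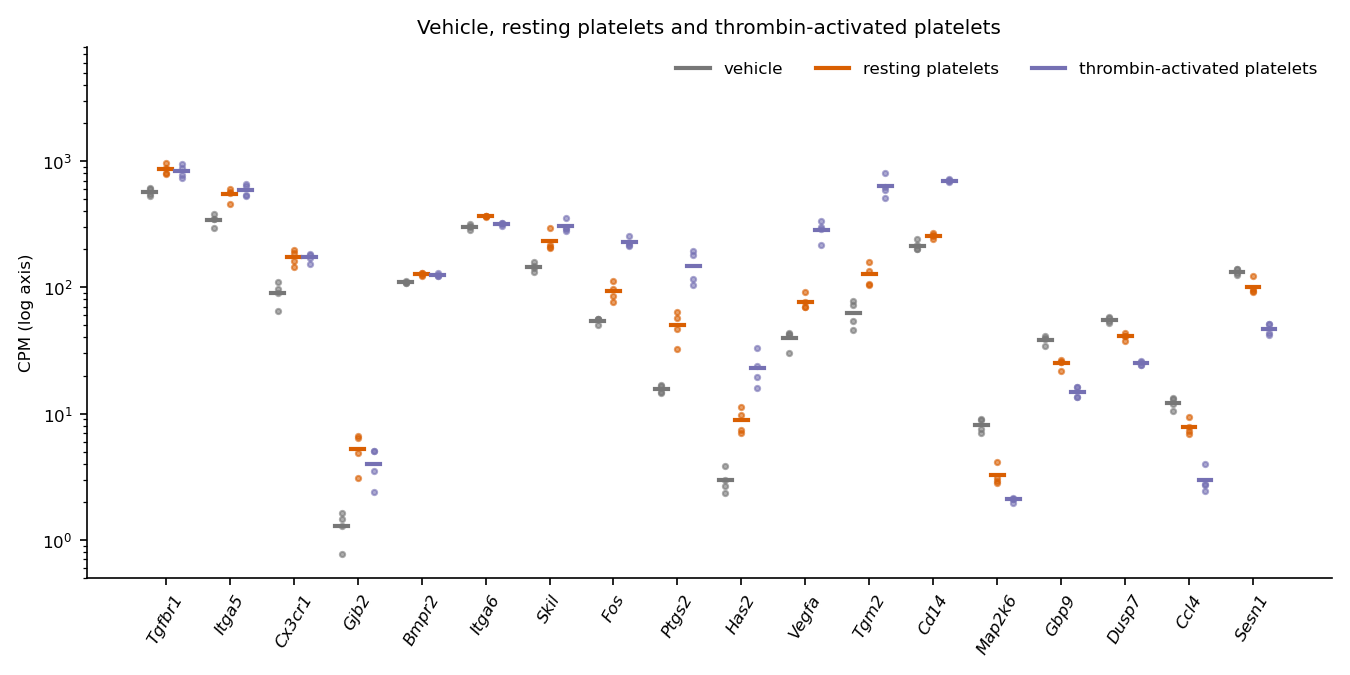
CPM on a log axis for 18 genes with vehicle (grey), resting platelets (orange) and thrombin-activated platelets (purple), with 1 point per library and a bar at the group mean. Tgfbr1, Itga5, Cx3cr1, Gjb2 and Bmpr2 have overlapping values in both platelet groups, while Ptgs2, Vegfa, Tgm2 and Cd14 are highest with activated platelets.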

How the data were processed

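RNA of 16 mouse macrophage libraries, 4 in each of 4 groups, was sequenced in bulk. The authors deposited 1 table of 46320 genes with an estimated count for each library. Per the submitters' processing notes, the tools were cutadapt 2.5, STAR 2.7.2b, Subread and featureCounts 1.6.4, and the genome builds GRCm39 and mm10, with no role or order given. Strand and multi-mapping settings are not stated. Of the values above 0, 25.5% were not whole, where whole counts had been assumed, and rounding changed 0.0073% of counts. Coordinates are those of the table.

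Groups and replicate numbers come from the sample titles. Genes were filtered with filterByExpr (15610 kept), scaled by TMM and tested with edgeR 4.0.16 (R 4.3.3, robust quasi-likelihood test) in 1 fit of the 4 groups, with Benjamini-Hochberg adjusted p at most 0.05 over all genes. CPM values use the TMM-scaled totals. All adjusted p-values in the text are from edgeR unless DESeq2 1.42.0 or limma-voom (limma 3.58.1) is named. Marker shares were compared by two-sided exact permutation tests over libraries (smallest p 0.0286). On simulated data for this comparison (15610 genes) the test recovered 66%, 94%, 98% and 100% of genes changed by 1.5, 2, 3 and 4-fold, with 10 false calls. The changed genes all averaged above 1 CPM, so these rates do not cover scarcer genes. The simulated counts held no effect of replicate number or GC content, so the false calls do not measure either.

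Replicate numbers pair the libraries: deviations from the group means correlated at 0.58, 0.506, 0.315 and 0.493 for equal numbers in vehicle and resting platelets, at 0.29 to 0.617 over 24 such pairs of all groups, and at -0.381 to 0.183 for 12 pairs of unequal numbers. What a number stands for is not stated in the labels. The paired fit adds the number as a block.

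Named genes are the 15 largest rises and the 15 largest falls among calls whose higher group averaged 5 CPM or more and whose libraries did not overlap, outside the platelet and red cell lists and without predicted gene models. To these were added 5 rises and 5 falls at 200 CPM or more, 8 genes of the platelet and red cell lists, up to 3 rises and 3 falls from each other list, and genes fixed by name. The macrophage, stromal, sex-linked and mitochondrial ribosomal genes and the untested globins were named after their values were seen. The members, the 46 lists and the tests were chosen with earlier results of these data known. Alternatives were other scalings and tools, no filter, the 2 groups alone, the block and omitted libraries. The GC correction (lowess, span 0.3, GC known for 14817 genes, 94.9%) and the stromal share as a covariate were chosen after seeing the data. Promoters are RefSeq windows of GRCm38.p6. Results for a few named genes were left out here.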

Additional observations from a re-analysis of the deposited data

Results flagged for a closer look

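Over 216 groups of 4 libraries (101 named genes and other values), 13 held 1 library far from the other three by Dixon's test, where chance gives about 1 in 20. With resting platelets, replicate 2 stood high for Tmeff1 (35.6 CPM, others 28.0 to 29.1), Sgk1 (278.0 CPM, others 180.0 to 194.0) and Skil (293.0 CPM, others 206.0 to 215.0), and replicate 3 for Lpar5 (41.4 CPM, others 28.4 to 30.6). In vehicle, replicate 2 was low for Vegfa (30.2 CPM, others 41.9 to 43.2) and high for Pparg (54.8 CPM, others 42.7 to 44.5). Vehicle replicate 1 was low for Fos (49.8 CPM, others 55.7 to 56.4) and vehicle replicate 4 for Hk2 (48.6 CPM, others 52.5 to 53.1). Carried transcripts gave 1 vehicle library above 0: Nrgn at 0.0714 CPM and Hba-a1 at 0.0357 CPM in replicate 4, Cd226 at 0.0366 CPM and Alox12 at 0.0732 CPM in replicate 3, and Mpig6b at 0.0455 CPM in replicate 2. These 5 values rest on 1 or 2 counts each.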

How the results depend on the processing

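The 529 calls (323 higher, 206 lower, 39 at 2-fold or more) became 934, 557, 377 and 24 with DESeq2, 335, 205 and 130 with no filter on low counts, and 188, 136, 52 and 18 in the fit of the 2 groups alone. With the replicate block they became 3360, 1705, 1655 and 80, with the block in the 2 groups alone 2900, 1507 and 1393, and with the block and GC correction 2588, 1549, 1039 and 71. With the GC correction alone they were 297, 213 and 84, with the stromal share as covariate 1823, 1017, 806 and 60, and with the block and stromal share 2850, 1414, 1436 and 81. RLE scaling, TMM without platelet and red cell genes and limma-voom gave counts within 1.5 times. Leaving out 1 library gave 208 to 550 calls, 153 to 315 higher, 52 to 254 lower and 25 to 47 at 2-fold. Leaving out a replicate number in every group gave 58 to 395, 47 to 210, 11 to 185 and 8 to 26. With the block these were, without replicate 1, 2, 3 and 4 in turn, 2002, 1978, 3344 and 2139 calls, 1109, 1056, 1656 and 1065 higher, 893, 922, 1688 and 1074 lower, and 63, 68, 95 and 64 at 2-fold. The cause of these differences was not tested.

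Of 95 called named genes, 48 kept their call without any 1 of the 8 libraries. Leaving out replicate 1, 2, 3 or 4 from every group kept 22, 44, 65 and 40, or 92, 95, 94 and 91 with the block. The block kept 95 and gained Il1b, Il10 and Egr1, and it changed no other named call. The block with the stromal share kept 94 (Oas2 at an adjusted p of 0.0938 by edgeR). The GC correction alone kept 73. Among others, DESeq2 gave no adjusted p for Batf3, Bmp4, Cd226, Gp9, Hba-a1 and Mpig6b.

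Over omitted libraries the log2 fold change of Tnf ranged from -0.1051 (without resting platelets 2) to 0.1668, with -0.0281 without vehicle 4, and that of Hmox1 from -0.1654 to 0.0207 (without vehicle 2). Differences in marker shares, resting platelets minus vehicle in percent of counts, ranged over omitted libraries from -0.00291 to 0.0016 for neutrophil, -4.38e-05 to 3.27e-05 for mast cell and -0.043 to 0.106 for stromal markers. They turned negative without vehicle 1 (-0.000853 for neutrophil, -1.03e-05 for mast cell), vehicle 2 (-0.000145 for neutrophil, -1.97e-05 for mast cell, -0.043 for stromal), vehicle 3 (-0.0186 for stromal), or resting platelets 1 (-0.0315 for stromal), 3 (-0.00291 for neutrophil) or 4 (-4.38e-05 for mast cell, -0.0409 for stromal). Depth limits genes with few counts, such as the globins. With 4 libraries a group, fold changes near 1.5 were recovered less often in simulated data than those of 2 or more.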
